A study of Saccharomyces cerevisiae with 9 samples.

Results

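The genes described here encode the proteins of the yeast mitochondrial ribosome. They were chosen by name alone: every row of the count table whose standard name in the R64 reference begins with MRPL or MRPS, or is RSM or MRP followed by a number, without MRP8. This gave 66 genes of the 7128 gene rows, and all 66 passed the filter on low counts. The reference product text assigns 38 of them to the large (54S) subunit and 27 to the small (37S) subunit. The remaining gene, RSM22, is annotated there as a tRNA methyltransferase and was kept apart from both subunits.

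RNA-seq was performed on Saccharomyces cerevisiae cells overexpressing EGFP (labelled GFPop), on cells overexpressing moxGFP (labelled MOXop), and on vector control cells (labelled Vector), with 3 biological replicates each. All cells were of the diploid a/α strain BY4743, which carries his3Δ1, leu2Δ0 and ura3Δ0 on both homologs and lys2Δ0 and met15Δ0 on one. EGFP or moxGFP was expressed from the TDH3 promoter on the multicopy plasmid pTOW40836, which carries URA3 and the weakly expressed leu2-89 allele. The authors describe moxGFP as free of cysteine and as having higher folding properties, so it differs from EGFP in more than its cysteine content. The control cells carried the empty plasmid and no GFP. All 9 cultures were grown in synthetic medium without leucine and uracil and taken in log phase, a condition that selects for many plasmid copies until the burden of the expressed protein sets the limit, so that the level of EGFP or moxGFP was set by the cells and not by the experimenter.

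Mitochondrial ribosomes translate the few mRNAs that the mitochondrial genome encodes, most of which specify core subunits of the respiratory chain and of ATP synthase. Nearly all of their proteins are made in the cytosol from nuclear genes and imported, while the rRNAs and the small subunit protein Var1 are encoded in the mitochondrion, so building one ribosome draws on both genomes. Many nuclear mRNAs for mitochondrial proteins carry, after the stop codon, an element bound by Puf3, a Pumilio-family RNA-binding protein that is known in yeast to act on the decay, translation and localization of these mRNAs.

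The element searched was TGTANATA on the gene's own strand in the 200 bases after the stop codon. It was present in 65 of the 66 genes (98.5%), against 4.38% of 137 cytosolic ribosomal protein genes and 14.0% of 6008 nuclear coding genes. RSM22 was the only gene of the set without it in this window. On the other strand of the same window the letters were found in 18.2% of the 66 genes and 13.2% of all genes, and in the 200 bases before the start codon in 9.09% and 4.96%. The 65 genes held 79 matches, with the first match at a median of 51 bases after the stop codon. A single match was present in 52 genes. The free position was A in 36 matches, T in 25, C in 17 and G in 1. A match is a description of the sequence and not proof of binding.

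The matches of genes on which the results below turn are shown so that they can be compared with each other, as R64 reference sequence from RefSeq, 5′ to 3′ on the gene's strand, with the element in capitals and 8 bases on each side:
MRPL31: atttcatcTGTATATAgtttaatc
MRPL51: attatactTGTATATAtaatttgg
MRPL20: aacaatcgTGTAAATActactcta
MRPL32: cttaagccTGTATATAgaaactta
MRPL4: ctctctccTGTAAATAtatatata
MRPL25: tctaatcaTGTAAATAattttgtg
MRPL7: attcgtcaTGTAAATAtataaact
MRPL38: taaccaccTGTATATAttgcttaa
MRP10: catggcctTGTATATAcaaattaa
MRP2: tacgcactTGTAAATAaatacatg
RSM18: gttctgtcTGTAAATAtacaatat
MRPS12: caacctttTGTAAATAgcaatgac
These matches lay from 27 (MRPL20) to 96 bases (MRPL38) after the stop codon. The elements of MRP2, MRPS12 and MRPL7 are the same 8 letters, with A at the free position, as in 36 of the 79 matches. MRP2 had the largest difference between moxGFP and EGFP cells. MRPS12 and MRPL7 had the lowest fold changes in moxGFP against vector cells. Of the large subunit genes highest there, MRPL31, MRPL51 and MRPL32 carry T at that position and MRPL20 carries A. A relation between the letter and the fold change was not tested. Since 65 of the 66 genes carried the element, genes with and without it could not be compared within the set. In the 300 bases before the start codon, on both strands, AATTTT was present in 40.9% of the 66 genes and 54.1% of all genes, AAAATTTT, which contains it, in 4.55% and 9.42%, and GCGATGAG in 6.06% and 4.05%.

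**Figure D1:**
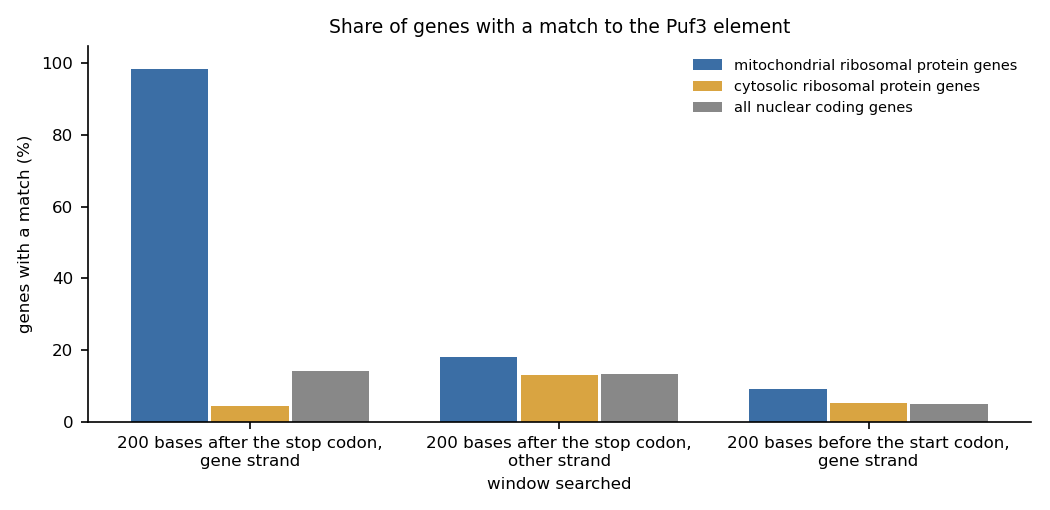
Share of genes (%) with at least 1 match to the Puf3 element in each of 3 windows, for the mitochondrial ribosomal protein genes, the cytosolic ribosomal protein genes and all nuclear coding genes. The 98.5% bar stands on the gene strand after the stop codon only; the other bars are all at or below 18.2%.

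The libraries held 7022201 to 9569895 gene counts in EGFP cells, 8941674 to 9064524 in moxGFP cells and 10643868 to 12959660 in vector cells. The EGFP entry took 11.2 to 23.8% of the gene counts in EGFP cells and the moxGFP entry 4.11 to 31.1% in moxGFP cells, and neither passed 0.000675% in vector cells. One library stood apart: in moxGFP replicate 2, rRNA took 61.2% of the gene counts, against 2.74 to 23.0% in the other 8 libraries, and its log2 values correlated with the other moxGFP libraries at r = 0.80 to 0.81, against 0.95 to 0.98 for the other pairs of replicates. The counts of genes called are given below with and without it. Of 15 haploid-specific genes, which a diploid represses, 14 were tested. In EGFP against vector cells 1 was higher (MF(ALPHA)1) and 2 lower (GPA1, HO). In moxGFP against vector cells 3 were higher (MF(ALPHA)1, MFA1, MF(ALPHA)2) and 4 lower (BAR1, FUS1, GPA1, HO). In moxGFP against EGFP cells 1 was higher (MF(ALPHA)1). Of all genes tested, 7.60, 14.8 and 7.48% were called higher in these comparisons, and 7.76, 14.0 and 7.07% lower. Without moxGFP replicate 2 the counts were 3 higher and 2 lower, 3 and 4, and 2 and 0, in the same order. The shares of all genes called higher were then 14.8, 18.5 and 11.6%, and 1104, 1206 and 650 of 6404 genes were called lower. The level of MF(ALPHA)1, the alpha-factor gene, was 1.88 to 4.64 CPM in EGFP cells, 14.3 to 20.2 CPM in moxGFP cells and 0.82 to 1.19 CPM in vector cells, and the part of these genes in the results was not tested.

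The 66 genes together took 0.219 to 0.272% of the counts in EGFP cells, 0.229 to 0.374% in moxGFP cells and 0.113 to 0.163% in vector cells, when rRNA, the GFP entries and the plasmid markers URA3 and LEU2 were left out of the total. The means were 0.240 ± 0.028, 0.294 ± 0.073 and 0.135 ± 0.025% (SD, n = 3 each) in EGFP, moxGFP and vector cells. No EGFP or moxGFP library overlapped with a vector library in this share, which is not corrected for a shift of the bulk of genes. With library sizes alone, which keep rRNA, GFP and marker entries, the median log2 fold change in EGFP against vector cells was 0.65 for the 66 genes. It was 0.52 for all genes. In moxGFP against vector cells these medians were 0.71 and 0.07. A sum is weighted toward the most abundant genes and toward what else fills the library, so the genes were also taken one by one. Each gene's log2(CPM + 0.5) was set against its mean in vector cells, where CPM is the read count normalised to the library size after TMM scaling, which equalizes the bulk of genes between libraries. The median of the 66 genes was then 0.35, 0.15 and 0.04 in EGFP replicates 1, 2 and 3, 0.49, 1.09 and 0.87 in moxGFP replicates 1, 2 and 3, and −0.17, 0.23 and −0.06 in vector replicates 1, 2 and 3. All 3 moxGFP medians lay above all vector medians, whereas the EGFP medians overlapped with those of the vector. In bulk RNA, more transcripts in each cell and more cells with transcripts cannot be told apart.

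**Figure D2:**
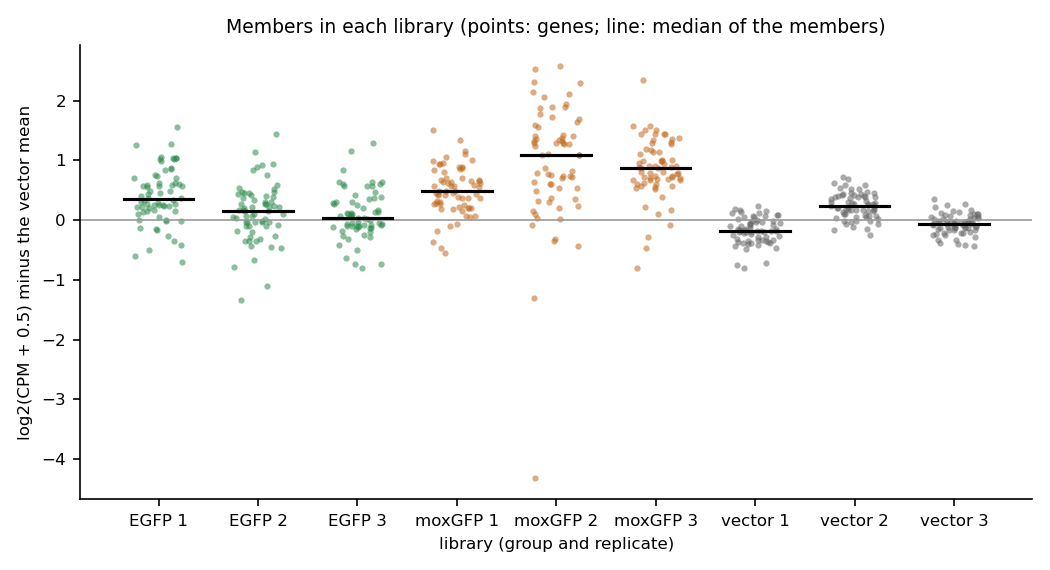
Each point is 1 of the 66 genes in 1 library, as log2(CPM + 0.5) minus the gene's mean in the 3 vector libraries, and the black line is the median. The medians are 0.49 to 1.09 in moxGFP cells, 0.04 to 0.35 in EGFP cells and −0.17 to 0.23 in vector cells; the lone low point in moxGFP replicate 2 is MRPL38, with a count of 0.

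Levels were compared between genes only as CPM per kb of coding length. The highest mean over the 9 libraries was that of MRPS12 (291 CPM per kb), which encodes uS12m of the decoding center, followed by MRPL39 (151), MRPL33 (96.8), MRPL36 (86.3) and MRPS18 (86.2). The lowest was that of RSM22 (7.24 CPM per kb), before MRPL40 (8.87), RSM23 (9.68), MRP20 (10.52) and MRP13 (10.6). The median of the genes was 25.8 CPM per kb in EGFP cells, 39.1 in moxGFP cells and 23.0 in vector cells. The median count of a gene over the 9 libraries ran from 80 to 1332.

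Against vector cells, many but not all of the mitochondrial ribosomal protein genes were higher in moxGFP cells. By edgeR's quasi-likelihood test with Benjamini-Hochberg adjustment, 26 of the 66 genes rose (39.4%) and 0 fell, where 14.8% of the 6338 genes tested were called higher and 14.0% lower. At an unadjusted p below 0.05, 41 of the 66 genes were higher and 0 lower, beside 1468 higher and 1270 lower of all 6338 genes. DESeq2's Wald test called 28 higher and 0 lower, where it called 14.8% of all 7128 gene rows higher. The fold change was positive in 64 of the 66 genes, and its median was 0.86 on the log2 scale, against 0.14 over all genes tested. All 3 moxGFP libraries were above all 3 vector libraries for 41 genes, and below them for 1, where the share over all genes was 22.9% above and 22.4% below. Without moxGFP replicate 2, 27 genes were called higher, 21 of them among the 26, and the median was 0.66, where 18.5% of all genes were called higher and their median was 0.05.

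**Figure D3:**
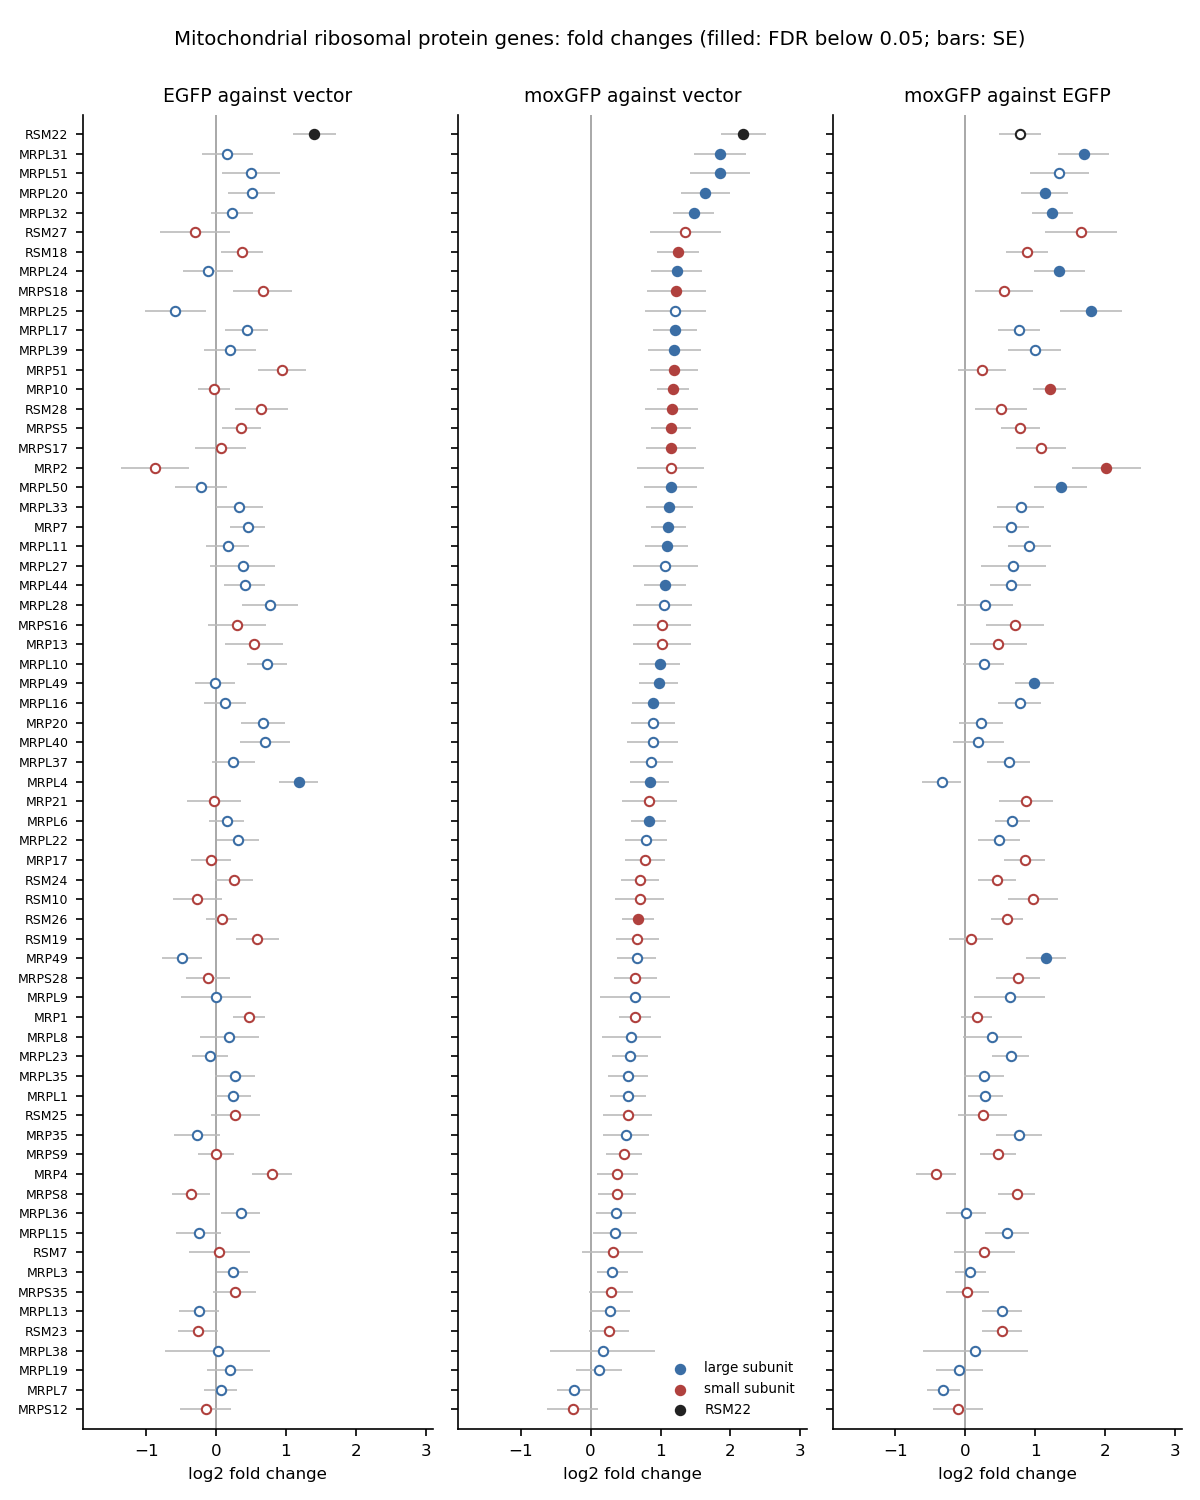
log2 fold change of each of the 66 genes (rows, ordered by moxGFP against vector) in the 3 comparisons, with the standard error as a bar, filled where the adjusted p is below 0.05; blue marks the large subunit, red the small subunit and black RSM22. In the middle panel 64 of 66 points lie right of 0 and 26 are filled; in the left panel 2 are filled.

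The number of genes past the test moved with the scaling, for these genes as for all genes. With DESeq2's size factors 22 genes were called higher, with library sizes alone 1 (RSM22), and with scaling to the ERCC spike-in RNAs 0, where 1 gene was higher at an unadjusted p below 0.05. The share of the whole table called higher was 13.8%, 1.64% and 0.174% under these 3 scalings, so the counts of 1 and 0 stood beside a background that was itself near 0. Library sizes alone moved the median of all genes to 0.52 in EGFP and 0.07 in moxGFP cells relative to vector cells, and to −0.47 between moxGFP and EGFP cells, but the median of the 66 genes stayed above that of all genes in moxGFP against vector under each of these scalings, by 0.64 to 0.75.

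In the large subunit, 17 of 38 genes rose in moxGFP cells and 0 fell, with a median log2 fold change of 0.89; without moxGFP replicate 2 the count was 17 as well and the median 0.68. MRPL31, which encodes the mitochondria-specific protein mL60, had 20.7, 58.3 and 28.7 CPM in moxGFP cells and 8.42, 11.5 and 9.52 CPM in vector cells. Every moxGFP library was above every vector library, with replicate 2 the highest. It rose by 1.85 ± 0.37 (log2 fold change ± SE; edgeR adjusted p = 0.0058). MRPL20, which encodes mL58, had 36.96, 73.8 and 47.5 CPM in moxGFP cells and 15.8, 22.3 and 12.4 CPM in vector cells. The groups did not overlap, and the fold change was 1.64 ± 0.35 (edgeR adjusted p = 0.0073). MRPL32, a protein that in yeast is matured by the m-AAA protease before it joins the ribosome, had 18.5, 31.5 and 28.9 CPM in moxGFP cells and 9.13, 10.6 and 8.53 CPM in vector cells. Here too the groups were apart, with a fold change of 1.47 ± 0.30 (edgeR adjusted p = 0.0064).

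MRPL51, which encodes mL43, had 31.2, 95.1 and 43.1 CPM in moxGFP cells and 17.5, 13.9 and 15.3 CPM in vector cells. The fold change was 1.85 ± 0.43 (edgeR adjusted p = 0.010). Its coding sequence overlaps the dubious open reading frame YPR099C on the opposite strand, and whether reads were counted by strand is not given in the sources used here, so its value is uncertain. Without it, 25 of 65 genes were called higher. Next in size among the called large subunit genes were MRPL24 (bL28m) with a log2 fold change of 1.23, MRPL17 (mL46) with 1.21 and MRPL39 (bL33m) with 1.20. Their edgeR adjusted p was 0.028, 0.015 and 0.036, in that order. MRPL39 had 28.0, 80.5 and 41.6 CPM in moxGFP cells. Without moxGFP replicate 2 the log2 fold change of MRPL39 was 0.68 and did not pass (edgeR adjusted p = 0.074). MRP7, the homolog of the bacterial protein bL27 beside the peptidyl transferase center, had 30.1, 46.4 and 34.8 CPM in moxGFP cells and 17.1, 16.9 and 17.4 CPM in vector cells. The vector libraries were nearly equal and all below the moxGFP libraries (2.16-fold; edgeR adjusted p = 0.0100); it was singled out after its values were seen.

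In the small subunit, 8 of 27 genes rose in moxGFP cells and 0 fell, with a median log2 fold change of 0.71; without moxGFP replicate 2 the count was 9 and the median 0.58. MRP10, which encodes the twin cysteine-motif protein mS37, had 24.6, 32.1 and 28.1 CPM in moxGFP cells and 13.04, 12.6 and 11.7 CPM in vector cells. The replicates lay close together in both groups, and the fold change was 1.18 ± 0.23 (edgeR adjusted p = 0.0056). RSM18 (bS18m) had 19.1, 21.3 and 29.7 CPM in moxGFP cells and 8.65, 12.6 and 8.30 CPM in vector cells. The groups did not overlap (1.25 ± 0.30; edgeR adjusted p = 0.013). MRPS18 (uS11m), with 42.4, 143 and 56.0 CPM in moxGFP cells and 26.7, 38.5 and 37.5 CPM in vector cells, stood just inside the threshold. Its moxGFP mean rests on replicate 2, and without that library edgeR's adjusted p was 0.15. RSM27 (mS33), with 13.1, 49.3 and 15.5 CPM in moxGFP cells and 7.35, 13.9 and 8.53 CPM in vector cells, had a fold change of 1.35 ± 0.51 that did not pass (edgeR adjusted p = 0.066). A difference between the subunits was not tested.

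RSM22 had the largest fold change of the 66 genes in both comparisons with vector cells. It had 15.5, 11.5 and 12.7 CPM in EGFP cells, 14.9, 26.2 and 27.2 CPM in moxGFP cells and 4.39, 4.50 and 6.02 CPM in vector cells. All 6 GFP libraries were above all 3 vector libraries. It rose by 2.19 ± 0.32 in moxGFP cells (edgeR adjusted p = 0.0017) and by 1.41 ± 0.31 in EGFP cells (edgeR adjusted p = 0.013), while moxGFP against EGFP cells gave 0.78 ± 0.30 (edgeR adjusted p = 0.098). It is both the gene with the lowest level per kb and the one without a Puf3 element in the window searched.

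The genes with the lowest fold changes in moxGFP cells were MRPS12, MRPL7, MRPL19, MRPL38 and RSM23, none of which passed the test. MRPL7 (uL5m) had 13.8, 11.4 and 12.0 CPM in moxGFP cells and 14.2, 15.9 and 14.1 CPM in vector cells. It was the only gene with all moxGFP libraries below all vector libraries, at a fold change of −0.25 ± 0.24. MRPS12 had 99.0, 188 and 83.3 CPM in moxGFP cells and 157.9, 164 and 120 CPM in vector cells. Replicate 2 was above and the other moxGFP replicates below all vector libraries (−0.26 ± 0.36). MRPL19 (uL11m), whose reading frame overlaps YNL184C on the same strand, had a fold change of 0.12, and RSM23 (mS29) one of 0.26. MRPL38, which encodes uL14m at the subunit interface, had 14.4, 0 and 16.6 CPM in moxGFP cells and 8.42, 10.6 and 9.67 CPM in vector cells. Its count of 0 in replicate 2 allows up to 0.875 CPM (3 counts over the TMM-scaled library size of 3429995; counting error only), while the other moxGFP libraries held 147 and 189 counts and lay above all vector libraries.

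**Figure D4:**
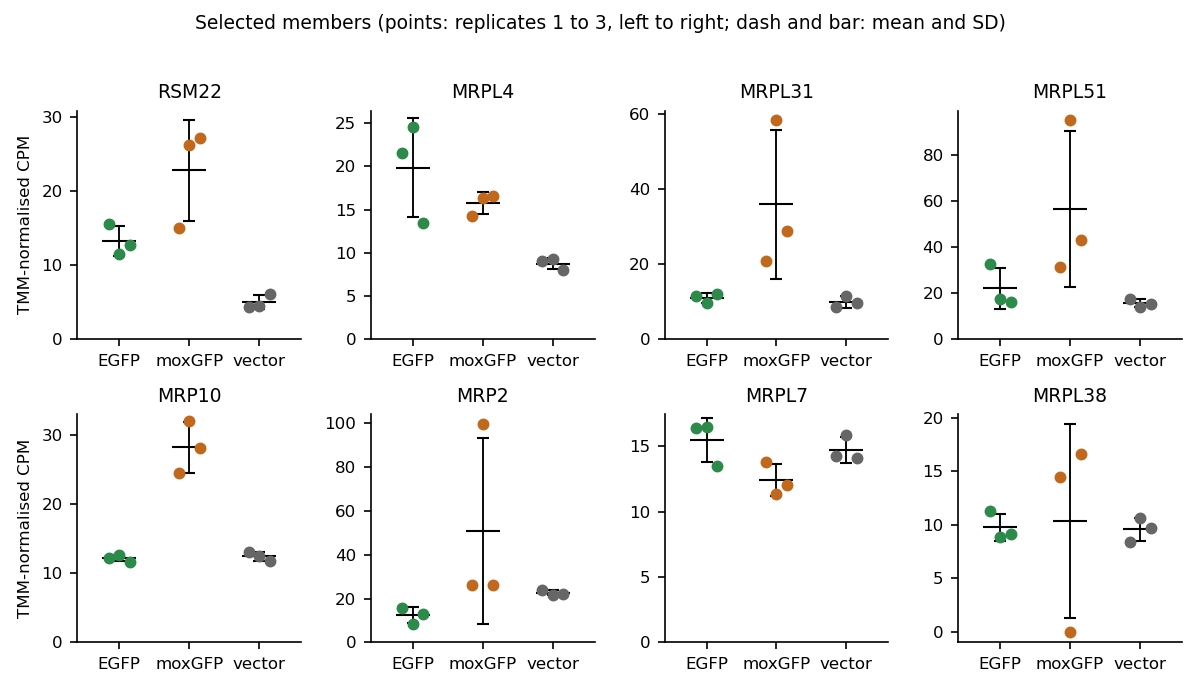
TMM-normalised CPM of 8 genes in EGFP, moxGFP and vector cells; points are replicates 1 to 3 from left to right, and the dash and bar are the mean and SD. MRP10 shows tight moxGFP values of 24.6 to 32.1 CPM, whereas MRP2 and MRPL51 owe much of their moxGFP mean to replicate 2, at 99.4 and 95.1 CPM.

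In EGFP cells few of the genes differed from vector cells. Of the 66 genes, 2 rose (RSM22 and MRPL4) and 0 fell by edgeR's quasi-likelihood test with Benjamini-Hochberg adjustment, where 7.60% of all genes tested were called higher and 7.76% lower. At an unadjusted p below 0.05, 5 were higher and 0 lower, beside 1009 higher and 955 lower of all 6338 genes. DESeq2's Wald test called the same 2 higher and 0 lower, where it called 7.93% of all 7128 gene rows higher. The median log2 fold change was 0.22, against 0.09 over all genes, with 46 of 66 positive. All EGFP libraries were above all vector libraries for 10 genes and below them for 2 (MRPS8 and MRP2), where the shares over all genes were 24.6% and 21.2%. The share of the 66 genes called or apart was thus below that of all genes.

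MRPL4 (uL29m), a protein at the rim of the exit tunnel, had 21.5, 24.6 and 13.5 CPM in EGFP cells, 14.3, 16.3 and 16.6 CPM in moxGFP cells and 9.01, 9.22 and 7.999 CPM in vector cells. Both GFP groups lay above the vector libraries. It rose by 1.19 ± 0.28 in EGFP cells (edgeR adjusted p = 0.017) and by 0.85 ± 0.28 in moxGFP cells (edgeR adjusted p = 0.044). Next came MRP51 with a log2 fold change of 0.95, MRP4, which overlaps YHL005C on the opposite strand, with 0.80, and MRPL28 with 0.77, for which edgeR's adjusted p was 0.087, 0.087 and 0.21. The lowest were MRP2 (−0.87), MRPL25 (−0.58), MRP49 (−0.49), MRPS8 (−0.36) and RSM27 (−0.30), with edgeR adjusted p from 0.25 to 0.72. When vector replicate 1 or EGFP replicate 1 was left out, 0 genes were called, and 1 (RSM22) without vector replicate 3 or EGFP replicate 2. Of all genes, 1.65, 3.17, 2.87 and 3.02% were called higher in these 4 fits, in the order named. Without moxGFP replicate 2, which shares the estimate of spread, 4 were higher (MRP4 and MRP51 in addition) and MRP2 was lower, while the calls over all genes grew to 945 higher (14.8%) and 1104 lower, so that 4 of 66 (6.06%) again lay below the share of all genes.

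Between moxGFP and EGFP cells, 10 of the 66 genes were higher in moxGFP cells and 0 lower by edgeR's quasi-likelihood test with Benjamini-Hochberg adjustment, where 7.48% of all genes tested were called higher and 7.07% lower. At an unadjusted p below 0.05 the numbers were 32 and 0, beside 1132 higher and 981 lower of all 6338 genes. DESeq2's Wald test gave 16 and 0, where it called 11.4% of all 7128 gene rows higher. The median log2 fold change was 0.64, against 0.01 over all genes, and 61 of 66 were positive. All moxGFP libraries were above all EGFP libraries for 26 genes and below them for 0, against 16.8% and 19.0% of all genes. The 10 genes were MRP2, MRPL25, MRPL31, MRPL50, MRPL24, MRPL32, MRP10, MRP49, MRPL20 and MRPL49, 8 of them of the large subunit. The count depended on single libraries. Without EGFP replicates 1, 2 and 3 in turn it was 2, 0 and 5, without vector replicate 3 or moxGFP replicate 3 it was 6, and without moxGFP replicate 1 it was 19. Without moxGFP replicate 2 it was 15, with 9 of the 10 among them. The share of all genes called higher moved the same way: 1.73% without EGFP replicate 1, 32 of 6398 genes without EGFP replicate 2, 4.89% without EGFP replicate 3, 4.78% without vector replicate 3, 6.96% without moxGFP replicate 3, 11.2% without moxGFP replicate 1 and 11.6% without moxGFP replicate 2.

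MRP2, which encodes uS14m, had 15.8, 8.60 and 12.7 CPM in EGFP cells, 26.2, 99.4 and 26.3 CPM in moxGFP cells and 24.1, 21.7 and 22.2 CPM in vector cells. All EGFP libraries were below and all moxGFP libraries above the vector libraries. The difference between moxGFP and EGFP cells was 2.02 ± 0.50 (edgeR adjusted p = 0.023), and 1.13 without moxGFP replicate 2 (edgeR adjusted p = 0.011). Neither GFP group passed the test against vector cells (edgeR adjusted p = 0.25 for EGFP and 0.092 for moxGFP). MRPL25 (mL59) had 8.75, 28.0 and 14.3 CPM in moxGFP cells and 5.23, 3.03 and 6.19 CPM in EGFP cells. The groups did not overlap (1.80 ± 0.44; edgeR adjusted p = 0.023). RSM27 had a difference of 1.65 ± 0.52 that did not pass (edgeR adjusted p = 0.053). MRP10 had 12.2, 12.6 and 11.7 CPM in EGFP cells, within the range of the vector cells or at its edge, and was 1.21 ± 0.23 higher in moxGFP cells on the log2 scale (edgeR adjusted p = 0.011). The lowest differences were those of MRP4 (−0.42), MRPL4 (−0.34), MRPL7 (−0.31), MRPS12 (−0.11) and MRPL19 (−0.09), none of which passed the test.

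Genes of related function were taken from lists chosen for their roles, and their counts are to be read against the all-gene shares called higher, which were 7.60% in EGFP cells and 14.8% in moxGFP cells relative to vector cells, and 7.48% between moxGFP and EGFP cells. Of 13 mitochondrial ribosomal proteins with other names, 12 were tested and 4 rose in moxGFP against vector cells: IMG2 (1.41), MNP1 (1.39), FYV4 (1.23) and NAM9 (0.76), with a median of 0.77 over the 12. IMG2 (1.45) and FYV4 (1.23) were also higher in moxGFP than in EGFP cells, and 0 of the 12 were called in EGFP against vector cells by edgeR's test, with 0 at an unadjusted p below 0.05. Of 11 assembly and rRNA modification genes, 1 rose in moxGFP cells (GEP3, 0.98) and 1 in EGFP cells (YTA12, a subunit of the m-AAA protease, 1.09). Of 12 translation factors, 2 rose in moxGFP cells: RRF1, the ribosome recycling factor (1.73), and GUF1 (1.18), which was also the 1 that rose in EGFP cells (1.21). The counts of 1 of 11 and of 1 or 2 of 12 lie near the shares of all genes and are no result about these lists. Among 18 translational activators and membrane receptors, 4 rose in moxGFP cells (SOV1, 1.85; CBP6, 1.60; CBP3, 0.99; AEP2, 0.82) and MSS51, an activator of COX1 translation, fell by 1.04; CBP6 (2.05) and AEP2 (0.91) were also higher in moxGFP than in EGFP cells. Cbp3 and Cbp6 bind the ribosomal tunnel exit together and assist cytochrome b synthesis. All of these passed edgeR's adjusted p of 0.05. Without moxGFP replicate 2, the counts higher in moxGFP against vector cells were 5 of 12 ribosomal proteins with other names (MNP1 no longer among them), 4 of 11 assembly genes, 2 of 12 translation factors and 5 of 18 activators and receptors (AEP2 no longer among them), beside 18.5% of all genes.

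PUF3 itself was higher in both GFP groups, with 10.2, 14.9 and 12.7 CPM in EGFP cells, 10.3, 9.62 and 7.73 CPM in moxGFP cells and 6.05, 4.27 and 3.58 CPM in vector cells. The groups did not overlap with the vector, and PUF3 rose by 1.45 in EGFP cells (edgeR adjusted p = 0.012) and by 1.00 in moxGFP cells (edgeR adjusted p = 0.038). The window's element was also counted in genes outside the set, a comparison chosen after the data were seen. Of 767 other tested genes with the element, 15.1% were called higher in moxGFP against vector cells, and of 4996 without it 14.6%, with median log2 fold changes of 0.22 and 0.07. In EGFP against vector cells the shares were 7.82% and 8.19%. Without moxGFP replicate 2 they were 19.5% and 18.9% in moxGFP cells and 14.1% and 15.9% in EGFP cells. The medians without moxGFP replicate 2 were 0.18 and 0.04 in moxGFP against vector cells. Between moxGFP and EGFP cells, over all 9 libraries, the shares called higher were 7.43% and 6.83%. A difference between genes with and without the element was not tested.

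Of the other parts of the mitochondrial gene expression list, RIM1, a mitochondrial single-stranded DNA-binding protein, fell by 0.93 in EGFP against vector cells. RIM1 was 1.20 higher in moxGFP than in EGFP cells. RPO41, the mitochondrial RNA polymerase, rose by 1.08 in EGFP against vector cells. ABF2 (DNA packaging), MIP1 (DNA polymerase) and MTF1 (transcription factor) passed in no comparison over all 9 libraries; ABF2 was called higher in moxGFP than in EGFP cells without moxGFP replicate 2. Transcripts made inside the mitochondrion were nearly absent from the table: VAR1 had 0 counts in all 9 libraries and 7 of the 10 listed transcripts (VAR1, COX1, COX2, COX3, COB, ATP6 and ATP8) did not pass the filter; the ATP synthase transcript OLI1 was tested and not called. The rRNAs 15S_RRNA and 21S_RRNA had 177 and 231 CPM in moxGFP replicate 2 and at most 12.7 and 16.7 CPM elsewhere. The call of 21S_RRNA as higher in moxGFP against vector cells (3.42; edgeR adjusted p = 0.036) was lost without that library. Whether mitochondrial rRNA followed the 66 genes could therefore not be read from these libraries.

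The cytosolic ribosomal protein genes gave the nearest comparison. Of 137, 0 rose in EGFP cells by edgeR's test (5 were higher at an unadjusted p under 0.05) and 108 in moxGFP cells against vector, with median log2 fold changes of 0.35 and 1.54, and 49 were higher in moxGFP than in EGFP cells, with a median of 1.22. Without moxGFP replicate 2 the counts were 6, 109 and 52, and the medians 0.30, 1.20 and 0.83, in the same order. In each comparison their median was above that of the mitochondrial ribosomal protein genes, a difference that was not tested. Their share of the counts, on the same total as above, was 9.49 to 13.8% in EGFP cells, 16.5 to 29.7% in moxGFP cells and 5.24 to 9.15% in vector cells. All 137 had a positive fold change in moxGFP cells, compared with 64 of the 66 mitochondrial ribosomal protein genes.

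Leaving out single libraries changed the count of calls in moxGFP against vector cells from 26 to between 7 and 33. The count was 7 without vector replicate 1 and likewise without vector replicate 3, 9 without moxGFP replicate 3 and 17 without EGFP replicate 2. The same 7 genes were called whichever library was left out: RSM22, MRPL31, MRPL51, MRPL20, MRPL32, MRP10 and MRP7. The share of all genes called higher was 5.39% without vector replicate 1, 6.95% without vector replicate 3, 11.2% without moxGFP replicate 3, 12.1% without EGFP replicate 2 and 16.8% without moxGFP replicate 1, so the number of calls over all genes moved alike. In the other 2 comparisons no gene was called in all 9 such fits.

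**Figure D5:**
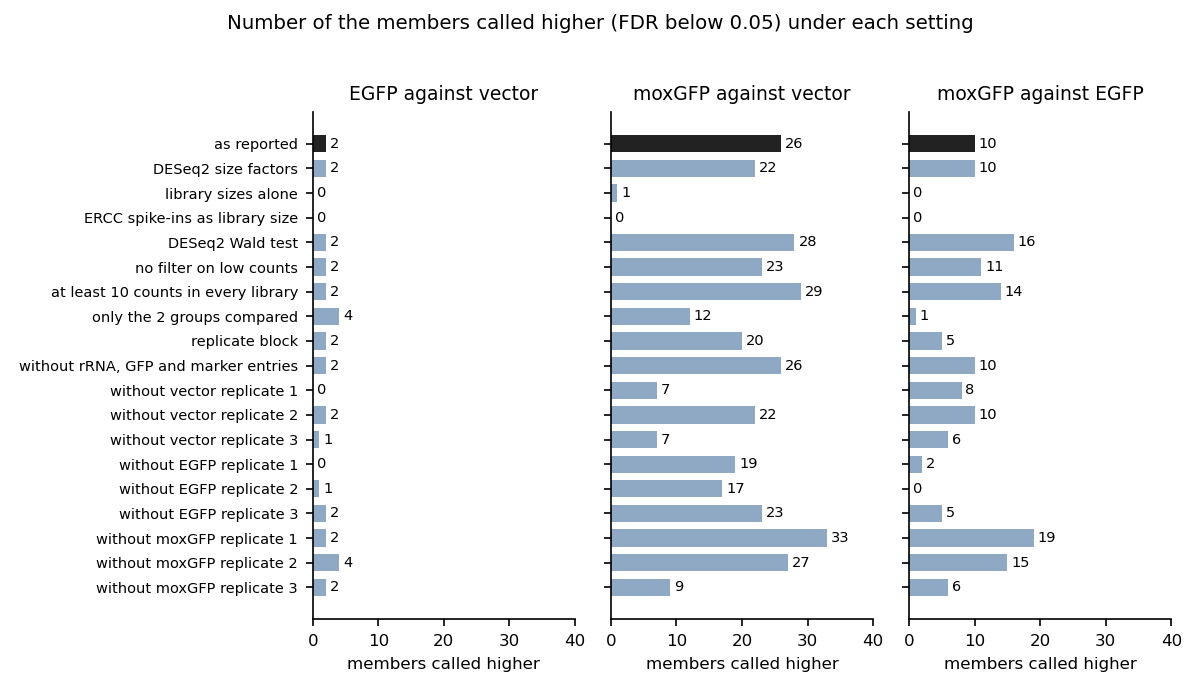
Number of the 66 genes called higher (adjusted p below 0.05) in each comparison, as reported (dark bars) and under each other setting. For moxGFP against vector the count is 26 as reported, 20 to 29 for most settings that keep all libraries, 12 with only the 2 groups compared, 1 with library sizes alone and 0 with ERCC scaling.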

How the data were processed

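Total RNA from 9 cultures was sequenced by the authors as stranded paired-end libraries with ERCC spike-ins. Reads were aligned with HISAT2 2.2.0 and handled with SAMtools 1.11 (submitters' processing notes), and the methods also name FastP, StringTie and edgeR 3.28.1. The authors deposited raw counts per gene; genome build, annotation and strand setting are not given in the sources used here. Of all per-sample columns, 0 were left unused. Rows were named by systematic name from R64, and 6048 rows matched; 92 ERCC rows were left out of the totals.

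Counts were fitted with edgeR 4.0.16 (R 4.3.3): filterByExpr, TMM, glmQLFit on group over all 9 libraries, glmQLFTest, and Benjamini-Hochberg adjustment over 6338 genes, with FDR below 0.05 called. The standard error is the absolute log2 fold change over the square root of F. The fit was tested on simulated counts in which as many genes were raised as lowered. The simulated libraries lacked the differences in GFP and rRNA content of the real ones, so the test cannot show how the fit performs under them. Alternatives included DESeq2 1.42.0, other scalings and filters, a replicate block and leaving out each library. Depth was 7022201 to 12959660 gene counts per library, and the bound given for a count of 0 covers counting error only, while standard errors include the spread between replicates.

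Members were named by the rule given above; in each comparison the text names called genes (up to 10 each way), the 5 highest and 5 lowest fold changes, the 5 highest and lowest levels, overlapping genes and called genes of each list. MRP7 was outside this rule and was chosen after its values were seen. The members and lists were chosen with earlier results of these data known. The element's other-strand and upstream windows, and the list and element counts without moxGFP replicate 2, were added after the data were seen. Coding sequences were compared with BLAST 2.17.0 (90% identity over 50% of the length); MRPL51 alone matched another, its overlapping frame. Sequence windows came from the RefSeq R64 reference; no coordinates are printed because the authors' build is not given.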

Additional observations from a re-analysis of the deposited data

Results flagged for a closer look

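For 10 genes the effects of moxGFP and EGFP, each against the same 3 vector libraries, differed by a test of the difference itself, edgeR's quasi-likelihood test of moxGFP minus EGFP with Benjamini-Hochberg adjustment over all genes. The log2 differences were 2.02 for MRP2, 1.80 for MRPL25, 1.69 for MRPL31, 1.36 for MRPL50, 1.34 for MRPL24, 1.24 for MRPL32, 1.21 for MRP10, 1.15 for MRP49, 1.13 for MRPL20 and 0.99 for MRPL49. All 10 were higher in moxGFP cells. Without moxGFP replicate 2, MRPL20 was not called (0.86, edgeR adjusted p = 0.053). Of the 10, 0 were called in each of the 9 fits that left out a single library. MRP2 was the 1 gene of the 66 whose EGFP libraries lay below all vector libraries while its moxGFP libraries lay above them; its difference was 1.13 without moxGFP replicate 2. Groups of 3 libraries were not searched for outlying values.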

How the results depend on the processing

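The number of genes called moved with the scaling and with single libraries, as did the number over all genes. For EGFP against vector the 2 genes called higher became 0 with library sizes alone, 0 with ERCC scaling, and 4, with 1 lower, when only the 2 groups were fitted; leaving out libraries gave 0 to 4 higher and 0 to 1 lower. For moxGFP against vector the 26 became 1 with library sizes alone, 0 with ERCC scaling and 12 with only the 2 groups, and 7 to 33 without single libraries. For moxGFP against EGFP the 10 became 0 with library sizes alone, 0 with ERCC scaling, 16 with DESeq2's Wald test, 1 with only the 2 groups (MRP10), and 0 to 19 without single libraries. Of all genes, 14.2, 9.74 and 1.90% were called higher with only the 2 groups, in the order of these comparisons. With library sizes alone the shares were 1.28, 1.64 and 0.300%, and with ERCC scaling 0.110, 0.174 and 0.0316%. DESeq2's Wald test called 11.4% higher in moxGFP against EGFP cells. The cause of these changes in the counts was not tested. The share of counts taken by the 66 genes over all gene counts was 0.172% in EGFP cells, 0.169% in moxGFP cells and 0.113% in vector cells, against 0.240, 0.294 and 0.135% without rRNA, GFP and marker entries; moxGFP replicate 2 alone stood at 0.0949% on the wider total.

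The labels do not say whether same-numbered libraries form pairs, and no pairing was visible. Correlations of same-numbered libraries' deviations ran from −0.33 to 0.23, and of differently numbered ones from −0.25 to 0.31. With the replicate block, 2 genes were called higher in EGFP and 20 in moxGFP cells against vector, and 5 in moxGFP against EGFP cells. The shares of all genes called higher were 5.49, 11.5 and 4.20%, in the same order. Of the single genes named, none that was called changed sign. Among those not called, EGFP against vector turned to 0.067 for MRPS8 and 0.10 for RSM27 with library sizes alone, and RSM27 ran from −0.62 to 0.024 without single libraries, turning without vector replicate 2. For moxGFP against vector, MRPL19 turned to −0.12 with library sizes alone and −0.21 with ERCC scaling and ran from −0.28 (without moxGFP replicate 2) to 0.35 without single libraries; MRPL38 turned to −0.12 with the replicate block and ran from −0.29 (without moxGFP replicate 3) to 0.69. For moxGFP against EGFP, leaving out EGFP replicate 1, moxGFP replicate 1 or moxGFP replicate 3 turned MRPL19 and MRPS12, which ran from −0.43 to 0.17 and from −0.50 to 0.13 without single libraries.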
